A study of Mus musculus with 4 samples.

Results

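The Cyp1 family of xenobiotic-metabolising cytochromes has 3 members in the mouse, Cyp1a1, Cyp1a2 and Cyp1b1, and all 3 were found by symbol among the 32285 genes of the count matrices. They were followed in cultured mouse pancreatic islets (strain C57BL/6), either wild type or Malat1-/- (lacking the long non-coding RNA Malat1), after exposure to TCDD. TCDD (2,3,7,8-tetrachlorodibenzo-p-dioxin) is a dioxin and a ligand of the aryl hydrocarbon receptor (AhR); its dose and time, the age of the mice and how many were pooled are not in the labels. The islets were dispersed and single cells were profiled by 10x Genomics 3-prime sequencing, which counts unique molecular identifiers (UMIs), 1 for each captured transcript. The series has 4 samples, of which the TCDD-exposed pair (wild type and Malat1-/-, the latter called Malat1-null) is described; the DMSO (solvent) pair was not analysed here, so the effect of TCDD was not measured. With 1 library per genotype there is no test of a genotype difference: every interval is 95%, is exact, and covers counting error only.

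In the absence of ligand AhR is held in the cytoplasm by a complex that includes Hsp90 and its co-chaperone Ptges3 (p23). Ligand binding moves it to the nucleus, where it pairs with Arnt and binds xenobiotic response elements, whose core is GCGTG. Cyp1a1 is the most used readout of this pathway, and the Cyp1a2 enzyme is mainly known from liver. Cyp1b1 is the member best known from mesenchymal and vascular cells. Tiparp and Ahrr are AhR targets that repress the receptor, and Nqo1 is a target shared with the antioxidant factor Nrf2.

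Cyp1a1 (ENSMUSG00000032315, chromosome 9, 57687928 to 57703824, plus strand) and Cyp1a2 (ENSMUSG00000032310, chromosome 9, 57676937 to 57683703, minus strand) are neighbours that point away from each other; these coordinates are those of GENCODE M21 on GRCm38 (mm10), and all 3 genes are annotated as protein-coding. The RefSeq start sites of this pair lie 13958 bases apart. Cyp1b1 (ENSMUSG00000024087) is on chromosome 17, from 79701537 to 79715061, on the minus strand. The 250 bases before the RefSeq start site (build GRCm38.p6) are shown for the members with an appreciable level in these cells, 5-prime to 3-prime on the gene's strand, with the response element core in capitals. The Cyp1a1 window is chr9:57697363-57697612, inside the GENCODE gene but in no annotated exon. The Cyp1b1 window is chr17:79715062-79715311, outside any annotated gene.
Cyp1a1: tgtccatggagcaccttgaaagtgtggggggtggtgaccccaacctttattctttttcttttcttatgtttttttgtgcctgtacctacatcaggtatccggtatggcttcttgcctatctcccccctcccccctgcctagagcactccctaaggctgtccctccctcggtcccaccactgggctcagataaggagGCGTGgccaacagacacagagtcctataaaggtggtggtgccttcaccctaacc
Cyp1b1: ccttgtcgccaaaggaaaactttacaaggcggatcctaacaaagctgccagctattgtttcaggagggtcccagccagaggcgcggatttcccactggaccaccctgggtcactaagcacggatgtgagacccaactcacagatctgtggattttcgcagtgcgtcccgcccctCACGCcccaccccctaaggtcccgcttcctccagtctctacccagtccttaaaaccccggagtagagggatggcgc
The Cyp1a1 window held 1 core, from base -54 to -50 on the gene's strand. The Cyp1b1 window also held 1, from -76 to -72 and on the opposite strand, so that it reads CACGC. The Cyp1a2 window held 0. None of the 3 held the longer form TNGCGTG. On either strand GCGTG was present in 28.2% of 32851 RefSeq promoter windows, each also the 250 bases before a start site, and TNGCGTG, which contains it, in 4.1%, so a match is a description only. The studied enhancers of Cyp1a1 lie farther upstream, outside this window.

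The libraries differed in depth and in the cells they held. Barcodes with at least 1000 UMIs numbered 2166 in the wild-type library and 3198 in Malat1-null, with medians of 26116 and 34038 UMIs, and 1 such barcode was in both. Over these barcodes Malat1 stood at 11821 CPM (UMIs scaled to a total of 1000000) in the wild-type library and at 0.439 CPM in the Malat1-null one. GEO's cell type entry is beta cell. Clustering without the Cyp1 members found several cell types, of which endothelial-like cells matter most here. They formed 1 cluster of 87 wild-type and 39 Malat1-null barcodes (4.02% and 1.22% of barcodes), with median depths of 11362 and 15352 UMIs. All 12 endothelial markers fixed for the naming reached 20 CPM in each library, and together they held 14534 and 15159 CPM. RNA of other cells was present beside them. The 8 beta-cell markers summed to 23734 CPM in the wild-type library and 8559 in Malat1-null. The wild-type sum includes 1 cell of 76659 UMIs in which hormone genes made up 41.5% of UMIs. In every other wild-type cell of the cluster that share was at most 0.993%. Per cell the direction was the opposite: the islet hormone genes together had a median of 1188.6 CPM among wild-type cells, against 7600 CPM among Malat1-null cells. The 7 B-cell markers summed to 166 and 7260 CPM. All 10 acinar markers reached 20 CPM in wild type, where they summed to 733 CPM, and 0 did in Malat1-null (58.0 CPM). Mesenchymal markers summed to 214 and 675 CPM and ductal markers to 338 and 255 CPM. Dendritic markers summed to 519 and 490 CPM, with 1 of 8 at 20 CPM or more in each library. All 5 erythroid markers were at 0 in both, and of the 10 macrophage markers 8 and 3 were at 0, with sums of 2.8 and 59.5 CPM. Without cells of over 5% hormone UMIs, endothelial Cyp1a1 was 5274 CPM in wild type, against 4986 CPM with them. The part of the other cell types in the results was not tested.

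Cyp1a1 was an endothelial transcript in these islets. In endothelial-like cells it stood at 4986 CPM in wild type (interval 4870 to 5104; 6999 UMIs) and at 4596 CPM in Malat1-null (4433 to 4763; 3010 UMIs), and in each library it ranked 9 among all genes of those cells. It was also the gene with the highest fold over all other barcodes, although it had no part in the clustering. At least 1 Cyp1a1 UMI was found in 78 of 87 wild-type cells (89.7%, Clopper-Pearson 81.3 to 95.2%). The Malat1-null count was 37 of 39 (94.9%, 82.7 to 99.4%). After every barcode was thinned to 1000 UMIs these shares were 79.3% and 87.2%. Endothelial-like cells gave 97.7% and 98.1% of all Cyp1a1 UMIs in barcodes of at least 1000 UMIs, while holding 1.83% and 0.55% of the UMIs of all genes. In barcodes of 10 to 99 UMIs, too small to be taken as cells, Cyp1a1 was at 29.3 CPM in the wild-type library and 6.67 CPM in Malat1-null.

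Outside the endothelial-like cluster Cyp1a1 was at 2.17 CPM in the wild-type library and 0.5 CPM in Malat1-null, with a UMI in 22 of 2079 and 12 of 3159 barcodes. In each library 1 barcode of a beta-like cluster supplied most of these UMIs. The wild-type one had 114 Cyp1a1 UMIs and 11 of the 12 endothelial markers; the Malat1-null one had 48 UMIs and 10 of 12. Without them the level outside was 0.653 and 0.093 CPM. Beta-like cells, the insulin producers, had a Cyp1a1 UMI in 1.22% of 901 wild-type barcodes and 0.47% of 1718 Malat1-null ones, at median depths of 62055 and 48974 UMIs; thinned to 1000 UMIs the shares were 0.0% and 0.06%. Acinar-like cells, macrophage-like cells, mesenchymal-like cells and the cluster led by Ghrl, Gcg and Ppy had 0 Cyp1a1 UMIs in both libraries. The limit that 3 counts set was 1.59 CPM in wild-type acinar-like cells but 18.5 CPM in the 14 wild-type macrophage-like barcodes, where depth therefore bounds the statement weakly. Among lymphocytes, wild-type B cell-like barcodes had 7.8 CPM (4.76 to 12.0; 20 UMIs in 5 of 194 barcodes) and Malat1-null ones 0.287 CPM (1 UMI in 308 barcodes). The 8, 5, 3 and 3 UMIs in single wild-type B cell-like barcodes came with at most 1 endothelial marker. Likewise 1 wild-type T or NK-like barcode had 6 Cyp1a1 UMIs and no endothelial marker.

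**Figure D1:**
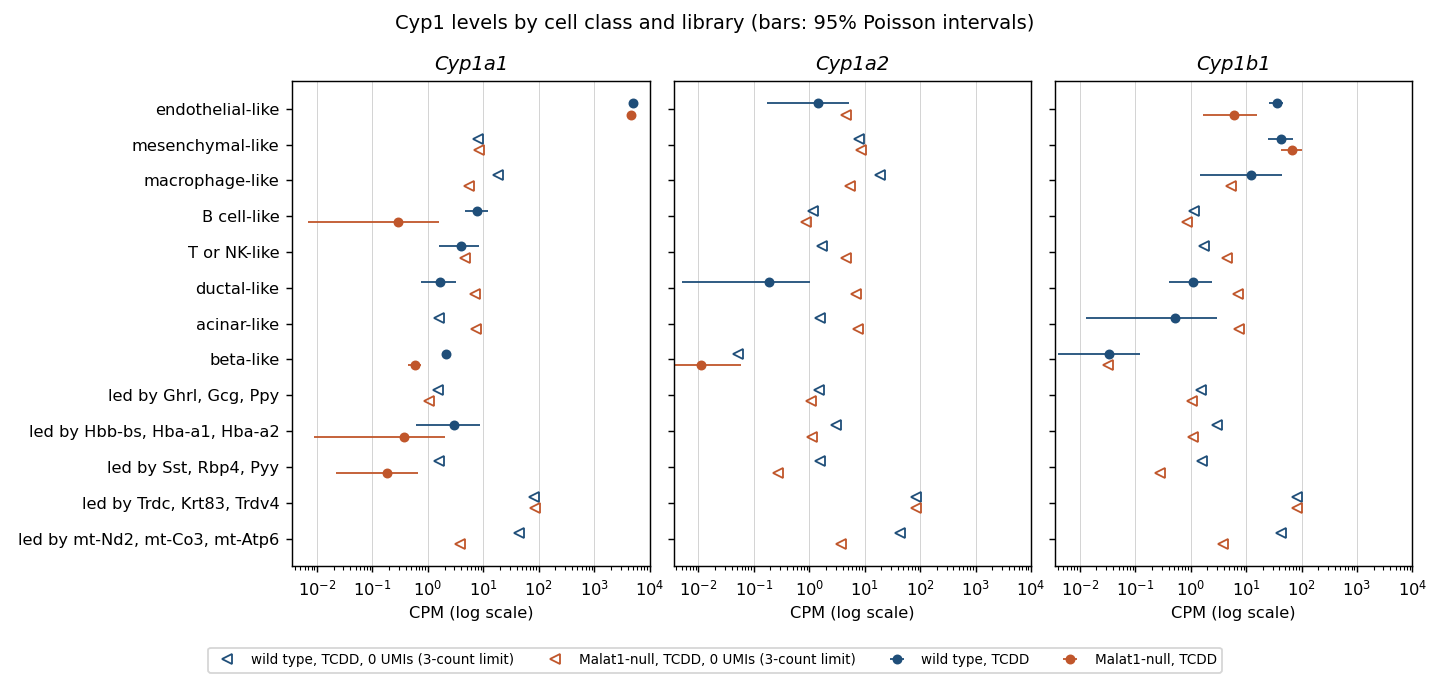
Level of each Cyp1 member (CPM, log scale) in each cell class, wild type in blue and Malat1-null in orange; filled points are levels with 95% Poisson intervals and open triangles mark the limit of 3 counts where no UMI was seen. Cyp1a1 in endothelial-like cells lies near 5000 CPM in both libraries and at under 10 CPM wherever it was detected in other classes, while Cyp1b1 has its highest level in mesenchymal-like cells, with an interval that overlaps the endothelial-like one in wild type.

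Cyp1a2 was nearly undetected. It had 3 UMIs in the whole wild-type set, 2 of them in 1 endothelial-like cell and 1 in a ductal-like cell, and 1 UMI in Malat1-null, in a beta-like cell. In Malat1-null endothelial-like cells 0 UMIs allowed a level of up to 4.58 CPM. In wild type the endothelial level was 1.42 CPM (0.173 to 5.15), against 4986 CPM for its neighbour Cyp1a1 in the same cells; since 3-prime UMIs count molecules, these levels need no scaling by length.

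Cyp1b1 was shared between mesenchymal-like and endothelial-like cells. In mesenchymal-like cells, a cluster of 24 wild-type and 17 Malat1-null barcodes led by Il11, Igfbp5 and Timp1, it stood at 42.7 CPM in wild type (24.4 to 69.4; 16 UMIs in 3 cells) and 68.0 CPM in Malat1-null (43.5 to 101; 24 UMIs in 4 cells). All 10 mesenchymal markers reached 20 CPM there, but only 1 was among the 10 leading genes and the Schwann list scored as high. In endothelial-like cells Cyp1b1 was at 35.6 CPM in wild type (26.4 to 47.0; 50 UMIs in 14 cells) and 6.11 CPM in Malat1-null (1.66 to 15.6; 4 UMIs in 3 cells). The wild-type levels in the 2 cell types have overlapping intervals, and in Malat1-null the mesenchymal interval lies above the endothelial one. Single barcodes weighed heavily: 1 mesenchymal-like barcode held 9 of the 16 wild-type UMIs and 1 held 14 of the 24 Malat1-null UMIs. Without the barcode with the most Cyp1b1 in each class, an alternative chosen after seeing the data, the mesenchymal levels were 19.5 CPM (7.85 to 40.2) and 31.0 CPM (14.9 to 57.0), the endothelial ones 24.5 CPM (16.9 to 34.2) and 3.17 CPM (0.384 to 11.5). In wild-type macrophage-like, ductal-like, acinar-like and beta-like cells Cyp1b1 was at 12.3, 1.12, 0.531 and 0.034 CPM, from 2, 6, 1 and 2 UMIs. In Malat1-null these classes had 0 UMIs, where 3 counts correspond to 5.43, 7.1, 7.49 and 0.032 CPM. The ductal-like and acinar-like limits lie above the wild-type levels, and the beta-like limit is close to its wild-type level. In those classes 0 UMIs do not tell the libraries apart. B cell-like and T or NK-like cells had 0 UMIs in both libraries.

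Ahr and Tiparp were also present in cell types where Cyp1a1 was at or near 0. Endothelial-like cells had the highest Ahr level of the named classes, 69.1 CPM (56.0 to 84.3) in the wild-type library and 90.1 CPM (68.6 to 116) in the Malat1-null one. B cell-like cells had 55.0 and 22.9 CPM of Ahr and ductal-like cells 32.8 and 28.4 CPM, with Cyp1a1 at 7.8 CPM or less in each. Beta-like cells had 0.981 and 0.812 CPM of Ahr, and their Arnt level, 23.8 and 19.9 CPM, lay below the endothelial 35.6 CPM in the wild-type library and close to the 21.4 CPM in Malat1-null. Tiparp was at 442 and 313 CPM in endothelial-like cells, at 270 and 99.1 CPM in mesenchymal-like cells, at 202 and 112 CPM in B cell-like cells and at 18.5 and 18.4 CPM in beta-like cells. Nqo1 was at 142 and 186 CPM in endothelial-like cells, at 45.4 and 53.8 CPM in mesenchymal-like cells and at 17.9 and 7.1 CPM in ductal-like cells. Ahrr, the receptor's repressor, had only 7 and 3 UMIs in endothelial-like cells. Aldh3a1, Ugt1a6a, Ugt1a6b, Ugt1a7c, Cyp2s1, Scin, Ereg and Fgf21, also known as AhR-induced genes in other tissues, had 0 UMIs in the endothelial-like cells of both libraries, where 3 counts correspond to 2.14 and 4.58 CPM. Gsta1, Gsta2 and Ido1 had 10, 3 and 1 UMIs in the wild-type library and 0 in Malat1-null.

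Over 21 class-by-library profiles from 12 classes (each of at least 20 barcodes), the genes most like Cyp1a1 were endothelial ones. Cdh5 (VE-cadherin) had a Pearson r of 0.998 on the log2(CPM + 10) scale, and Adgrl4, Robo4, Tie1 and Erg each had 0.997. The genes most like Cyp1b1 were Adamts4 (0.995), Dpysl3 (0.98), Kcnj8 (0.973), Tfpi2 (0.969) and Fkbp10 (0.968). The profiles share 2 libraries, and 1 or 2 classes set the value for such restricted genes, so r is a description; the 17 Malat1-null mesenchymal-like barcodes, where Cyp1b1 was highest, were too few to enter.

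Within endothelial-like cells Cyp1a1 varied widely. In wild type the level per cell ran from 0 to 20879 CPM, with a median of 5177 and quartiles of 1212 and 9110 CPM. Of the 87 cells 17 were under 500 CPM and 28 over 8000. In Malat1-null it ran from 0 to 16154 CPM, with a median of 2675 and quartiles of 1870 and 5747 CPM, and 3 of 39 cells were under 500 and 8 over 8000. The ranges of the libraries overlap, and 3 wild-type cells lie above the highest Malat1-null cell. The 17 wild-type cells with the most Cyp1a1 UMIs held 53.2% of them, and the top 8 of the Malat1-null cells 58.7%. After thinning to 1000 UMIs, the coefficient of variation beyond Poisson counting error was 0.844 and 0.881. Among 23 and 48 genes with a mean within 2-fold of that of Cyp1a1 it ranked 6 and 7 from the top, against medians of 0.464 and 0.532. Esm1, a capillary and tip cell gene, had a like value in wild type (0.905) but a lower one in Malat1-null (0.457). The endothelial markers Plvap and Kdr had 0.832 and 0.717 in wild type, so a wide spread there was not particular to Cyp1a1. In Malat1-null they had 0.588 and 0.348.

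**Figure D2:**
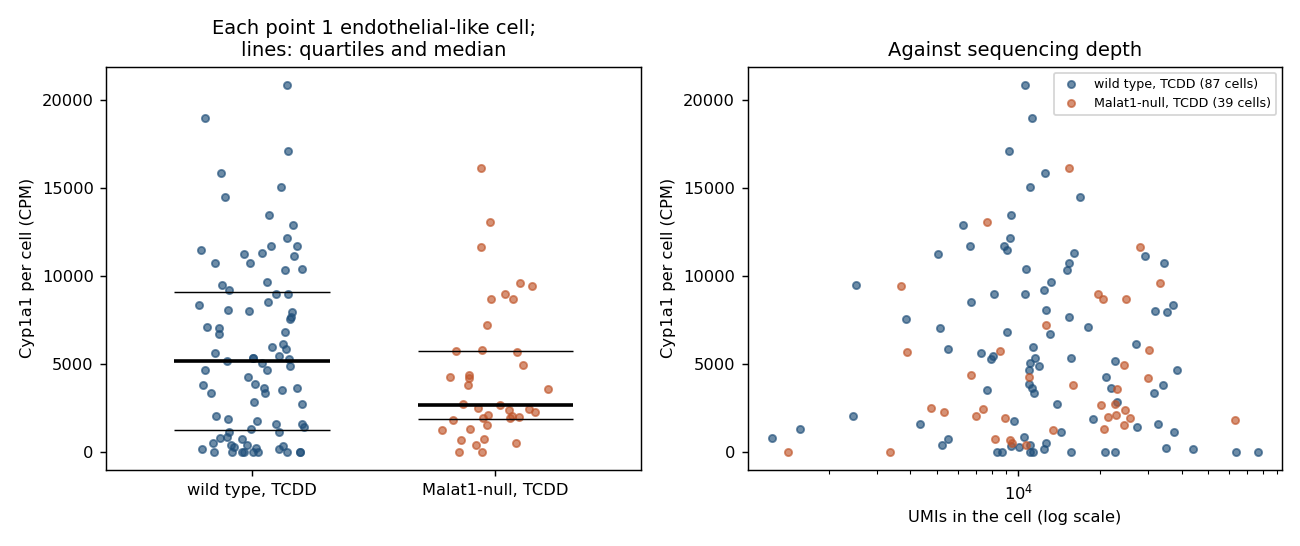
Left, Cyp1a1 (CPM) in each endothelial-like cell, with the median (thick line) and quartiles (thin lines) of each library; right, the same values against the cell's UMIs (log scale). Wild-type cells spread from 0 to 20879 CPM around a median of 5177 and Malat1-null cells from 0 to 16154 around 2675, and wild-type cells at 0 have 8370 to 76659 UMIs.

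The 9 wild-type cells without Cyp1a1 were not shallow. They had 8370 to 76659 UMIs, and at the library's median level the shallowest would have held 43.3 Cyp1a1 UMIs. All had endothelial markers, which summed to between 5376 and 15862 CPM with a median of 10336, against 15972 CPM in the other 78 cells. In 1 of them hormone genes made up 41.5% of UMIs. Tiparp was seen in all 9, at a median of 120 CPM against 290 CPM in the others, Ahr in 3 of 9 against 44 of 78, and Nqo1 in 2 of 9 against 52 of 78. The 2 Malat1-null cells without Cyp1a1 had 1415 and 3362 UMIs, so that 3.8 UMIs were expected in the shallower one, and they held no Tiparp, Nqo1 or Ahr UMI. Across cells Cyp1a1 had a Spearman rho of -0.15 in the wild-type library and 0.21 in Malat1-null with UMIs per cell, 0.14 and -0.38 with the mitochondrial share, and near 0 with the hormone share (0.0 and 0.06). With the summed endothelial markers rho was 0.49 and 0.16.

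Few genes went with high Cyp1a1 from cell to cell in both libraries. Of 5567 genes with a UMI in at least 25% of the cells of each library, 23 (0.413%) had a rho of 0.3 or more with Cyp1a1 in both, on the log2(CPM + 10) scale, and 0 had -0.3 or less in both. The 12 with the highest rho (the smaller of the 2) were Hspa8, Esd, Taldo1, Sqstm1, Smpdl3a, Gclm, Anxa3, Ftl1, Ptgs1, Il4ra, Dab2 and Acvrl1. Hspa8, a constitutive chaperone of the Hsp70 family, had 0.45 in the wild-type library and 0.59 in Malat1-null. Gclm, the modifier subunit of the enzyme that starts glutathione synthesis, had 0.54 and 0.38. Taldo1, an enzyme of the pentose phosphate pathway, had 0.44 and 0.5. Esd, an esterase that acts on a glutathione conjugate, had 0.45 and 0.44, and the ferritin light chain Ftl1 had 0.35 and 0.43. Ptgs1, a cyclooxygenase, had 0.37 and 0.34 but was seen in only 29.9% of wild-type cells. The lowest values in both libraries belonged to Tjp1 (-0.29 and -0.32), a tight junction scaffold, Plec (-0.36 and -0.28), a cytoskeletal linker, and Tmsb10 (-0.33 and -0.27), an actin-binding peptide, followed by Erh, Aida and Dcp2. Cells of 1 library share its reagents and depth range, and rho has no p here.

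These correlations depended on how many UMIs each cell gave. When every cell was thinned to 1000 UMIs, 2 genes were at 0.3 or more in both libraries, Taldo1 and the glutathione transferase Gstp1, which is named after its value was seen, and with 5000 UMIs there were 9. Taldo1 held 0.31 and 0.36 (the rho smaller in size) in these settings, Gclm 0.17 and 0.45, and Hspa8 0.17 and 0.28. Smpdl3a, Anxa3, Il4ra, Dab2 and Ptgs1 had a rho below 0 in at least 1 library at 1000 UMIs. Among cells with a Cyp1a1 UMI 12 genes passed.

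In the cells with the most Cyp1a1 the levels themselves show the size. The 29 wild-type cells with 7983 CPM or more of Cyp1a1 held Gclm at 989 CPM, against 108 CPM in the 29 cells with 2029 CPM or less; median depths were 11008 and 11295 UMIs. In Malat1-null the 13 cells at 4930 CPM or more held Gclm at 1039 CPM and the 13 at 1964 CPM or less held 427 CPM, with median depths of 19651 and 10689 UMIs. Nqo1 was at 261 against 31.2 CPM in the wild-type library and 258 against 136 CPM in Malat1-null. Tiparp was at 543 against 360 CPM and 305 against 218 CPM. Ahr itself was at 95.8 against 40.4 CPM in wild type but at 73.0 against 95.4 CPM in Malat1-null. Genes outside these pathways, mentioned after their values were seen, differed as well. In wild type Plvap was at 2274 against 593 CPM, Kdr at 3234 against 991 and Esm1 at 6097 against 1926. Wild-type Igfbp3 (907 against 5006 CPM) and Ldha (244 against 832) went the other way. In Malat1-null Plvap was at 2708 against 2107 CPM, Kdr at 2584 against 1957, Igfbp3 at 1034 against 1144 and Ldha at 180 against 409. These groups of cells were formed by their Cyp1a1 level, and Gclm was named for its rho with Cyp1a1 in the same cells. A difference in Gclm was therefore built in, and all these values are a description. The low wild-type group includes the cell of 76659 UMIs that is rich in hormone UMIs. Ins2 was at 34578 CPM in that group, against 666 CPM in the high one.

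**Figure D3:**
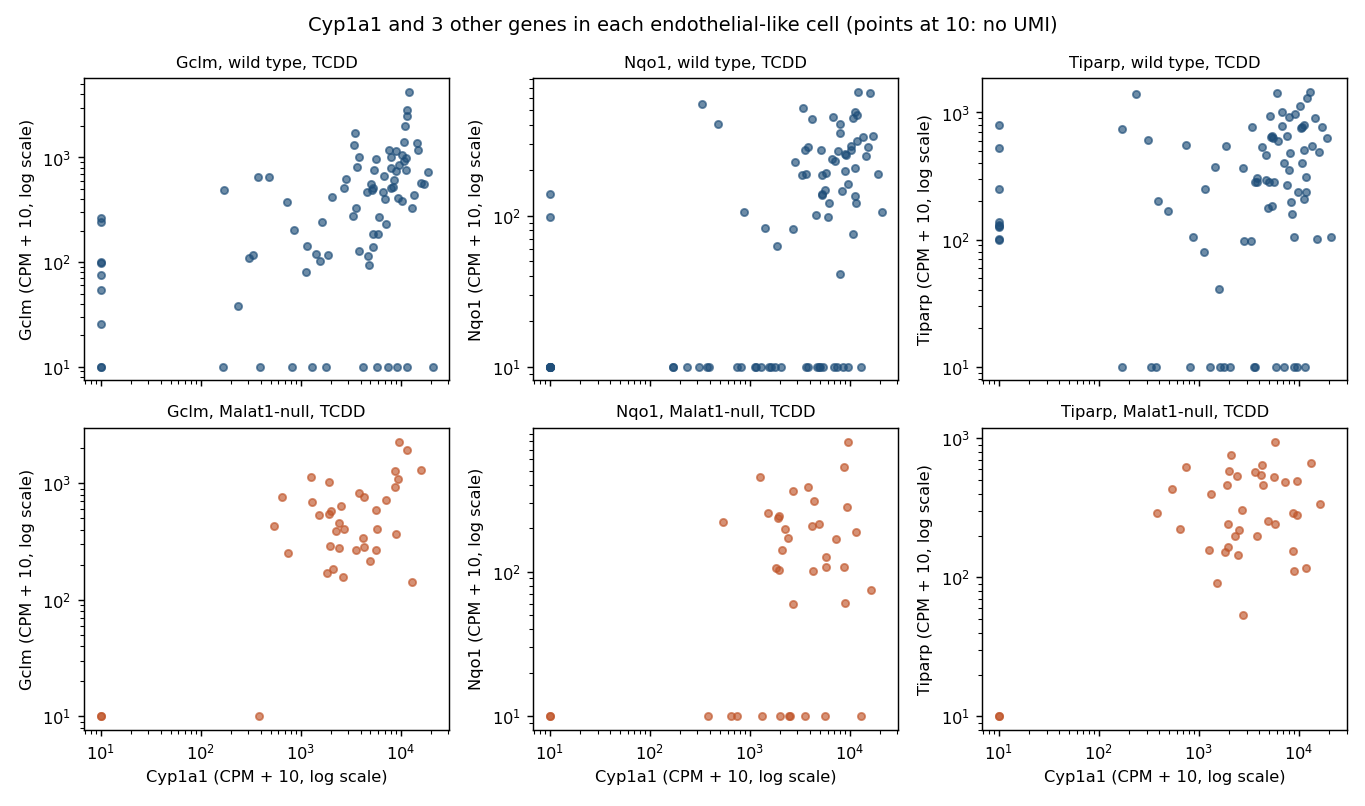
Each point is 1 endothelial-like cell, with Cyp1a1 on the horizontal axis and Gclm, Nqo1 or Tiparp on the vertical axis (CPM + 10, log scales; points at 10 had no UMI); wild type above, Malat1-null below. In wild type rho is 0.55 for Nqo1, 0.54 for Gclm and 0.32 for Tiparp, and in Malat1-null it is 0.38 for Gclm, 0.25 for Nqo1 and 0.22 for Tiparp.

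By gene group, several lists had a larger share of positive rho in both libraries than the 31.7% of all genes. For immediate-early genes it was 10 of 13 (76.9%), for the endothelial markers 9 of 12 (75%) and for capillary genes 5 of 7 (71.4%). Of the 14 Nrf2 and oxidative stress genes 12 could be compared, and 11 had a positive rho in both libraries (91.7%); the median rho was 0.22 and 0.318, against -0.012 and 0.072 over all genes. Besides Gclm, thioredoxin reductase Txnrd1 had 0.32 and 0.48 and sulfiredoxin Srxn1 0.32 and 0.37, the other members at 0.3 or more in both, chosen for mention after their values were seen. Hmox1, which degrades haem, had 0.22 and 0.67, Txn1 0.3 and 0.15, and Prdx1 0.17 and 0.34. The exception with a negative rho in both was Mt1 (-0.13 and -0.24). With counts thinned to 5000 UMIs 9 of 12 were positive in both (27.6% of all genes), and with 1000 UMIs 4 of 12 (21.9%). The count was 7 of 12 with each library clustered alone (34.1%) and 9 of 12 among cells with a Cyp1a1 UMI (27.9%). Of 8 heat shock genes compared 4 were positive in both, led by Hspa8; Hspb1 had 0.3 and 0.32 and Hsp90aa1 0.16 and 0.29, while Hspd1 was negative in both (-0.04 and -0.11) and is named after its value was seen.

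The AhR genes themselves were less uniform. Among receptor and partner genes, Hsp90ab1 (0.22 and 0.14) and Ptges3 (0.12 and 0.23) were positive in both libraries. Ahr had 0.31 in the wild-type library and -0.22 in Malat1-null. Nqo1 was positive in both and Nfe2l2, which encodes Nrf2, had -0.07 and 0.38. Among 6 genes of P450 electron transfer and haem, Por, the reductase that feeds electrons to P450 enzymes, had 0.05 and 0.37. Capillary genes were divided: Plvap, the diaphragm protein of fenestrated capillaries, had 0.5 and 0.24 and Esm1 0.28 and 0.19, Kdr had 0.52 and 0.0, and Igfbp3 had -0.35 and -0.23. Arterial genes showed no shared sign, with Dll4 at 0.07 and 0.31 and Efnb2 at -0.03 and -0.02. Glycolysis and hypoxia genes differed between the libraries: the summed list had a rho of -0.43 in the wild-type library and 0.07 in Malat1-null, and Ldha had -0.44 and -0.22, Gapdh -0.38 and 0.11 and Aldoa -0.34 and 0.14. Islet hormone genes lay near 0 (Ins2 -0.03 and 0.08, Ins1 -0.03 and -0.04).

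The most abundant immediate-early genes, Ier3 (0.13 and 0.34), Jund (0.01 and 0.25) and Jun (-0.02 and -0.08), had values of either sign. Of 7 tip and angiogenic genes compared 3 were positive in both (42.9%, against 31.7% of all genes). The matrix genes Sparc and Col4a1 had 0.05 and 0.04, and 0.16 and -0.03. Of 6 quiescence and flow genes 2 were (33.3%, near the share of all genes), with the flow-responsive factors Klf4 at 0.08 and 0.13 and Klf2 at -0.23 and 0.12. Of 3 activation genes 1 was (33.3%, also near that share), with Nfkbia at -0.01 and 0.04 and Irf1 at 0.03 and 0.09. The remaining lists had 1 gene each that could be compared: Ephb4 for venous cells (-0.06 and 0.42), Flt4 for lymphatic cells (0.28 and 0.1), Pcna for proliferation (0.28 and 0.08) and Ptgs1 for arachidonic and retinoid metabolism. The next most abundant genes of these lists were seen in too few cells: venous Selp stood at 166 CPM in the wild-type library and at 0 UMIs in Malat1-null, lymphatic Prox1 at 7.12 and 6.11 CPM, cycling Ube2c at 1.42 and 51.9 CPM and the retinoid receptor Rarb at 2.14 and 7.63 CPM.

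Between the genotypes, summed Cyp1a1 in endothelial-like cells was close. The ratio of Malat1-null to wild type was 0.922 (interval 0.883 to 0.962), a log2 of -0.12. For 3930 genes with at least 50 CPM in a library and 50 UMIs in all, 90 (2.29%) had a level in Malat1-null at least 2-fold above wild type with an interval beyond 1.5-fold and 98 (2.49%) lay as far below, with a median log2 ratio of -0.03; Cyp1a1 was in neither group. The choice of cells and of their weighting moved this ratio beyond its counting interval. The median per cell was 5177 CPM in the wild-type library and 2675 CPM in Malat1-null, a log2 of -0.95, and the mean of per-cell levels gave -0.42. Among cells with at least 10000 UMIs the summed ratio was 0.04 on the log2 scale, and among those with at most 20000 it was -0.42. When barcodes were classed by their own markers the value was -0.54. When each library was clustered alone it was -0.74; the Malat1-null endothelial-like cluster then held 55 barcodes, of which 17 were the mesenchymal-like ones, where Cyp1a1 was at 0. A genotype difference cannot be told apart from a difference between the 2 libraries.

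**Figure D4:**
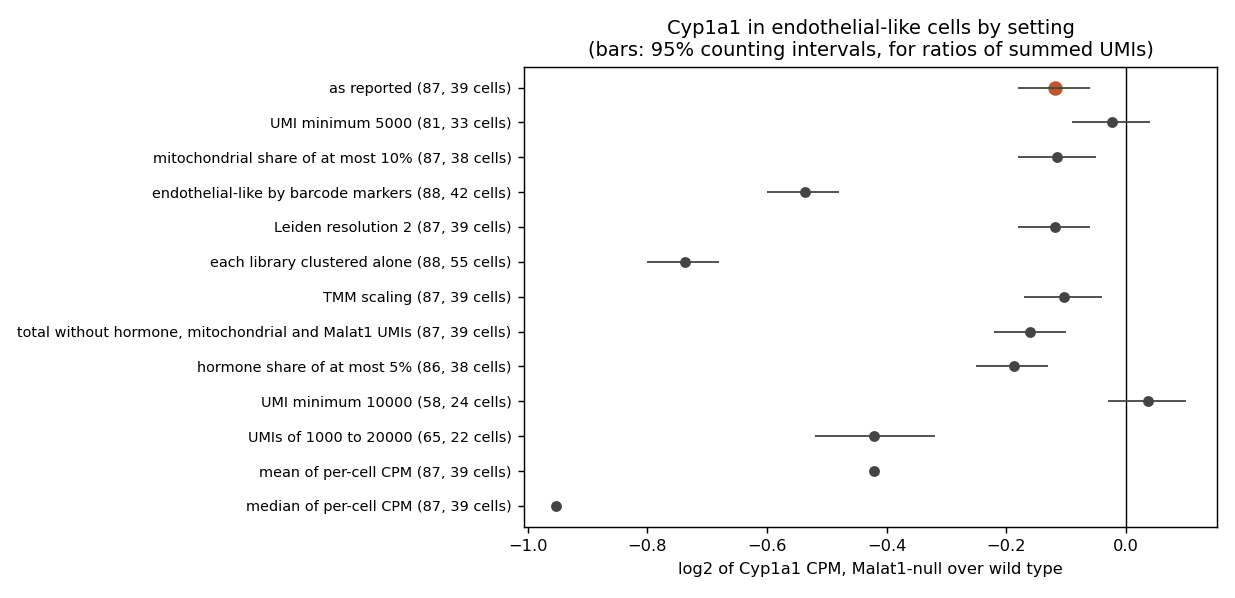
Log2 of the Cyp1a1 level in Malat1-null over wild-type endothelial-like cells under each setting, with the cells of each library in brackets; bars are 95% counting intervals of summed ratios, and 0 means equal levels. The reported value (orange) is -0.12, and the settings run from -0.95 for the median per cell to 0.04 for cells with at least 10000 UMIs.

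Of the other AhR genes, Ahr, Hsp90ab1, Ptges3, Tiparp, Nqo1 and Nfe2l2 had enough UMIs for the 2-fold rule and did not meet it. Tiparp was at 442 CPM in the wild-type library and 313 in Malat1-null, a ratio of 0.707 (0.601 to 0.83). Nqo1 had a ratio of 1.31 (1.04 to 1.65), Ahr 1.3 (0.927 to 1.82) and Nfe2l2 1.29 (1.09 to 1.52). Slc7a5, an amino acid transporter, had 0.385 (0.145 to 0.87) from 39 and 7 UMIs, too few for the rule. Cyp1b1 had a ratio of 0.171 (0.045 to 0.467) from 50 and 4 UMIs, under the level for the 2-fold rule. This is a log2 of -2.54, and with each library clustered alone, where the Malat1-null cluster took in the mesenchymal-like barcodes, it was -0.36. Of the 50 wild-type UMIs 16 came from 1 cell, and the 14 wild-type cells with Cyp1b1 had a median of 7407 CPM of Cyp1a1 and 18562.5 UMIs, against 5071 CPM and 11248 UMIs in the cells without it. In 1 of the 14 there was no Cyp1a1, and 8 of the 14 were above the library's median Cyp1a1. In Malat1-null the 3 cells with Cyp1b1 had a median of 2724 CPM of Cyp1a1, against 2596 CPM in the cells without it. Over all 3930 genes tested, 2.29% were higher and 2.49% lower in Malat1-null by this rule, with a median log2 ratio of -0.03. In the oxidative stress list 1 of 12 genes met the rule, Hmox1, which was at 375 CPM in the wild-type library and 844 CPM in Malat1-null. Of 3 venous genes 2 were lower (median log2 ratio -1.92). One of them, Selp, was seen in only 6.9% of wild-type cells and 0.0% of Malat1-null ones, so few cells set its ratio. Of 4 islet hormone genes 3 were lower and 1 higher (median log2 ratio -1.475). Those hormone ratios come from summed counts that include the wild-type cell with 41.5% hormone UMIs. The median per cell of the summed hormone list was instead higher in Malat1-null, 7600 against 1188.6 CPM. In the glycolysis and hypoxia list 4 of 12 were lower in Malat1-null, with a median log2 ratio of -0.76. Eno1, Tpi1, Bnip3 and Ndrg1 made up this count and are named after their values were seen. Gapdh was at 1525 and 1653 CPM, and Ldha at 533 and 301 CPM.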

How the data were processed

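For the TCDD-exposed libraries, raw UMI counts were deposited for 32285 genes and 6794880 barcodes each, without a barcode filter. The authors made them with Cell Ranger 4 per the file headers, or 2.1.0 with build mm10 per the submitters' processing notes; the difference was not settled. Barcodes with at least 1000 UMIs were kept, and no doublet caller was run. Both libraries were clustered together (scanpy 1.11.5; 2000 variable genes without the members, AhR genes, Malat1, sex-linked and mitochondrial genes; 30 components, 15 neighbours, Leiden resolution 1). Clusters were named from 15 marker lists by the highest score. Limits beyond this (score 0.6, another hormone gene at 10% and Ins2 at 50% of the highest cluster, low UMIs) were chosen once cluster results were known, and changed on 1 occasion: macrophage-like and some B cell-like cells had been unnamed and the Ghrl, Gcg and Ppy cluster named alpha-like, while the endothelial-like cluster was named under both. Counts were summed per class and scaled to CPM by total, with Poisson, Clopper-Pearson and conditional intervals; the limit for a count of 0 is 3 counts. Thinning draws UMIs without replacement. TMM factors (edgeR 4.0.16) were an alternative. Named are the members, the AhR genes (1 of which is not reported here), the 5 genes most like Cyp1a1 and Cyp1b1 over classes, the 12 highest and 6 lowest with Cyp1a1 over cells, and 2 to 4 of the most abundant genes of each other list (18 lists), with fewer correlations where genes were seen in too few cells. The members and lists were chosen with earlier results of these data known. The functions were tested on simulated data. The samples' DMSO matrices were not used here.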

Additional observations from a re-analysis of the deposited data

Results flagged for a closer look

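Barcodes of 10 to 99 UMIs, used above only for a level of Cyp1a1, held a large part of all Cyp1b1. They had 62 Cyp1b1 UMIs in the wild-type library and 57 in Malat1-null, which is 40.5% and 59.4% of the gene's UMIs in each library. Of these barcodes 14180 occurred in both libraries (21.9% of the wild-type and 29.5% of the Malat1-null ones), and they held 53 and 49 of the Cyp1b1 UMIs. Cyp1b1 was at 146 CPM and 127 CPM in the shared barcodes, against 4.68 and 4.29 CPM in the other low barcodes. The stromal genes Col3a1 and Dcn showed the same division: Col3a1 was at 5470 and 4458 CPM in shared barcodes and at 113 and 61.2 CPM in the others, and Dcn at 6553 and 5978 against 238 and 179 CPM. Cyp1a1 was at 19.3 CPM in shared and 31.2 CPM in other barcodes of wild type (7 and 60 UMIs), and at 13.0 and 5.36 CPM in Malat1-null (5 and 10 UMIs). The 29.3 and 6.67 CPM given above for Cyp1a1 pool shared and other barcodes. The endothelial genes Kdr and Plvap had higher CPM in shared barcodes, but from few UMIs. Kdr was at 24.8 against 6.24 CPM in wild type (9 and 12 UMIs) and at 10.4 against 4.83 CPM in Malat1-null (4 and 9 UMIs). Plvap was at 30.3 against 7.8 CPM in wild type (11 and 15 UMIs) and at 28.6 against 3.76 CPM in Malat1-null (11 and 7 UMIs).

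Malat1 was present in these shared barcodes of the Malat1-null library too, at 7342 CPM (2826 UMIs), against 417 CPM in its other low barcodes and 0.439 CPM in barcodes of at least 1000 UMIs. In wild type the shared barcodes had 9032 CPM of Malat1. These values were examined after the data had been seen, and their cause was not tested. The results on Cyp1b1 in barcodes of at least 1000 UMIs do not use them.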

How the results depend on the processing

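Each library is the only one of its group, so no replicate could be left out. No paired analysis was possible because there is 1 library per genotype and treatment. Endothelial-like Cyp1a1 in wild type was 4850 CPM with barcodes classed by their own markers, 5235 without hormone, mitochondrial and Malat1 UMIs in the total, 5274 at a hormone share of at most 5%, 4679 at a minimum of 10000 UMIs and 6680 (6679.5) at 1000 to 20000 UMIs. In Malat1-null it was 4914 at a minimum of 5000 UMIs, 3344 by barcode markers, 2990 (2989.9) with each library clustered alone, 4800 (4799.8) at a minimum of 10000 and 4987 at 1000 to 20000 UMIs. The log2 ratio of summed Cyp1a1, -0.12, was -0.02 (-0.024) at a minimum of 5000 UMIs, -0.537 by barcode markers and -0.737 with libraries alone. It was -0.187 at a hormone share of at most 5% and -0.422 at 1000 to 20000 UMIs. Per cell the log2 ratio was -0.421 as a mean and -0.953 as a median. The summed ratio changed sign, to 0.037, at a minimum of 10000 UMIs. In those cells the mean per cell gave -0.17 and the median -0.33. The Cyp1b1 log2 ratio, -2.54, was -0.356 with libraries alone, and no value was possible at 1000 to 20000 UMIs; without the barcode with the most Cyp1b1 of each library, an alternative added after seeing the data, it was -2.94 (-2.945). Genes 2-fold apart, 188, were 410 with libraries alone, 77 at 1000 to 20000 UMIs and 111 at a minimum of 100 CPM. The spread in Malat1-null, 0.881, was 1.23 (1.226) with libraries alone, 0.775 at a minimum of 10000 and 1.07 at 1000 to 20000 UMIs. The 23 genes that went with Cyp1a1 were 42 by barcode markers, 76 with libraries alone, 12 in cells with a Cyp1a1 UMI, 2 thinned to 1000 UMIs and 9 thinned to 5000.

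For the 18 genes named for their rho, 250 values were computed under 14 settings: 207 moved by less than 0.1, 33 by more and 10 changed sign. These counts use only the rho smaller in size over the libraries. They include settings that could not change a rank correlation (TMM scaling and the pseudocount) and Leiden resolution 2, which gave 87 and 39 cells again with unchanged values. The 207 therefore overstate how stable the values were. Thinned to 1000 UMIs the rho smaller in size over the libraries was 0.019 for Aida, -0.126 for Anxa3, -0.003 for Dab2, 0.022 for Dcp2, -0.036 for Il4ra, 0.052 for Plec, -0.003 for Ptgs1 and -0.088 for Smpdl3a. Aida had 0.068 at a minimum of 10000 UMIs and Tjp1 0.26 with libraries alone. The depth limits of 10000 and 20000 UMIs and the thinning to 5000 were chosen after seeing the data. A mitochondrial share of at most 10% changed none of these summaries by more than counting error, 10% for the spread or 1.5 times for a count. The same held for TMM scaling of the levels, the ratios and the genes 2-fold apart. TMM scaling could not change the rho or the spread, and a pseudocount of 100 CPM could not change a rank correlation. Leiden resolution 2 gave 87 and 39 cells again, with unchanged values.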
